A study of Homo sapiens with 6 samples.

Results

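The aryl hydrocarbon receptor (AHR) axis comprised 7 genes chosen by symbol: the receptor AHR, its partner ARNT, the repressors AHRR and TIPARP, and the enzymes CYP1A1, CYP1B1 and ALDH1A3. All 7 had a row among the 15651 genes of the table, and all 7 were among the 15246 that passed the filter, which asks for 4 or more normalized counts in 3 or more libraries. MDA-MB-231, an established human triple-negative breast cancer line, was treated with DMSO, the solvent control, or with BRL-50481, an inhibitor of the cyclic AMP phosphodiesterase PDE7A, and total RNA was used for 3 sequencing libraries per group. The treatment protocol gives 50 μM for 72 h, whereas the treatment characteristic of the treated samples reads 5 μM and 48 h. Both groups were the same unmodified line in the same serum-containing medium, so the comparison describes 1 line, 1 compound and 1 dose. It asks how the genes of the receptor and its feedback loop stood in the treated cells.

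AHR is a transcription factor that waits in the cytosol in a complex with the chaperone HSP90. When it binds a planar aromatic ligand, a pollutant such as dioxin or a tryptophan metabolite such as kynurenine, it moves to the nucleus, pairs with ARNT and binds a short DNA motif called the xenobiotic response element. CYP1A1 is the classical readout of that binding, and AHRR and TIPARP are targets whose products restrain the receptor in turn. AHR is known to be expressed in many breast cancer lines without added ligand.

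Promoter sequences of 3 members that passed the test show where matches to that motif lie. They are shown as a description, and whether the matches bear on the direction of a member's change was not tested. The searches used the core GCGTG and the longer form TNGCGTG, which contains the core, on both strands. Of the 7 members, 6 had a window in the RefSeq promoter table of GRCh38.p14, from 250 bases before to 50 after a start site, and CYP1B1 had no entry. In the stretches printed here capitals mark the motif, written CACGC or CACGCNA where it lies on the other strand. The RefSeq window of CYP1A1 on the minus strand, chr15:74725479-74725778, holds 1 core at -57 from the start site.
CYP1A1 window: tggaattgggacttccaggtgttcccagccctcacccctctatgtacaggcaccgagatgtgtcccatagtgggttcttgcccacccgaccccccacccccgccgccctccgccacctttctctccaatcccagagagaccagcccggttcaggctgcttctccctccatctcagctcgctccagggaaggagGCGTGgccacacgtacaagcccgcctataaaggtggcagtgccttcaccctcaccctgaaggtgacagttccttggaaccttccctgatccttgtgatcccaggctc
A further stretch of CYP1A1 was chosen because it is the 300 bases with the most matches to the longer form. No stretch was chosen this way for AHRR or TIPARP, so the 3 genes cannot be compared on it. How often a stretch chosen this way holds as many matches was not computed. It runs from -1191 to -892, chr15:74726420-74726719 of hg38 on the minus strand, and holds 3 matches to the longer form, which are the ones in capitals.
CYP1A1 upstream: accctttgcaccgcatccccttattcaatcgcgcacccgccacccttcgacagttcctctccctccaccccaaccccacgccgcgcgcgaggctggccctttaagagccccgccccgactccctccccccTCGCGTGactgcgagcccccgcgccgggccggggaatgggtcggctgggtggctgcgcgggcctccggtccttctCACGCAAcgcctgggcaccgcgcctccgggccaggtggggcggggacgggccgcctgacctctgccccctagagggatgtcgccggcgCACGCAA
The first RefSeq window of AHRR on the plus strand, chr5:321464-321763, holds 1 core at -30, which is also a match to the longer form that begins at -32.
AHRR: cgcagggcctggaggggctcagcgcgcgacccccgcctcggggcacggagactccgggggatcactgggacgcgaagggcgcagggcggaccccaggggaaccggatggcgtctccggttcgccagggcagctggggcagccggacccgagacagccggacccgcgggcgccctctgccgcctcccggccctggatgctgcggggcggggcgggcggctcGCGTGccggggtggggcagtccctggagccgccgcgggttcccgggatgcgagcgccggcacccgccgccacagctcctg
The first RefSeq window of TIPARP on the plus strand, chr3:156674340-156674639, holds 2 cores on the other strand, and neither belongs to the longer form.
TIPARP: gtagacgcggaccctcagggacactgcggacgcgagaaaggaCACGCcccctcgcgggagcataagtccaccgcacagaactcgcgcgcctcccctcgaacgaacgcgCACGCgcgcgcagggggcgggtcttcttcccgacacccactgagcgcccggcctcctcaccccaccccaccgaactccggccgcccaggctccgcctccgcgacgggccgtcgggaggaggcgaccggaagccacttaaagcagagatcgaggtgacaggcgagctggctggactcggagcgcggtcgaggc

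These letters are common, so their presence in a window says little alone. The core was in 36.5% of all 35116 RefSeq windows of 300 bases and the longer form in 5.51%. Over the 16253 such windows of genes that had a row here, the shares were 46.7% and 6.63%. In a wider window, from 1500 bases before to 50 after the start, the shares over all windows were 74.1% and 23.9%. CYP1A1 held 10 cores and 5 of the longer form in its wider window, and 0.732% and 0.0228% of all windows of that length held as many. The first window of TIPARP held 6 cores there and no longer form, and 6.53% of all windows of that length held as many cores. ARNT held 5 cores and 2 of the longer form, and 11.7% and 3.92% of all windows held as many. AHRR held 4 cores at its first start and 8 at its second. Each of its starts had 1 of the longer form, and 23.9% of all windows of that length held as many. AHR held 1 core, at 37, and ALDH1A3 held 2. A match is a description of letters and not a measured binding site.

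**Figure D1:**
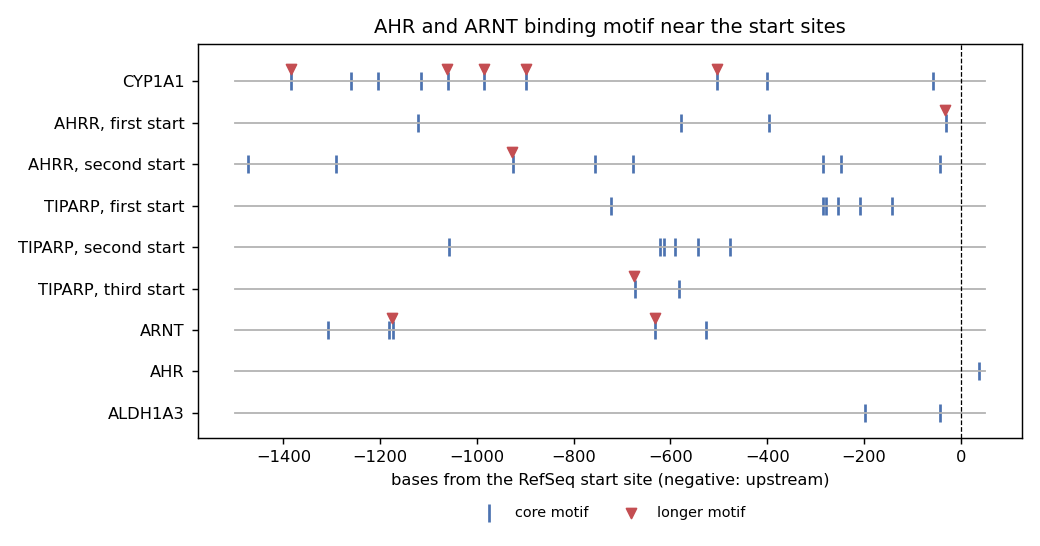
Matches to the core and longer motif from 1500 bases before to 50 after each RefSeq start site of 6 members, with distance from the start site in bases on the x axis and 1 line per start site. CYP1A1 has 5 of the longer form, and no other start site has more than 2.

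The receptor's mRNA was more abundant in the treated cells. AHR (ENSG00000106546) lies at chr7:16916359-17346152 on the plus strand of hg38 in the GENCODE annotation. There it shares 29.5% of its exon bases with 1 other gene model on that strand, which had no row among the genes analysed here. Whether the overlap affected its count was not tested. It had 11508, 9605 and 10070 normalized counts in DMSO replicates 1 to 3 and 13641, 12990 and 12875 in BRL-50481 replicates 1 to 3. All 3 treated libraries lay above all 3 controls, among which replicate 1 was the highest. The group means were 10394 ± 992 and 13169 ± 413 (SD, n = 3), a rise of 0.35 ± 0.0616 (SE) on the log2 scale, or 1.27-fold (limma, Benjamini-Hochberg adjusted p = 0.000332 over all genes tested). The 95% interval of the log2 change was 0.21 to 0.48. With a correction for transcript length and GC content, added after the data were seen, the rise was 0.19 (limma, adjusted p = 3.1e-05). Without DMSO replicate 1, the library that deviated most from its group, the rise was 0.42 (SE 0.0373, limma, adjusted p = 1.88e-13). That lower p rests on fewer libraries and is not read as stronger evidence than the main fit.

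ARNT, the nuclear partner that AHR shares with the hypoxia-inducible factors, did not pass the test. The gene (ENSG00000143437) is at chr1:150809713-150876708 on the minus strand. It had 1862, 1591 and 1724 normalized counts in DMSO and 1570, 1609 and 1673 in BRL-50481. The groups overlapped, with 1 treated library below all controls and the other two between control values. The means were 1726 ± 136 and 1617 ± 51.8, and the log2 difference was -0.09 ± 0.0657 with a 95% interval from -0.23 to 0.05 (limma, adjusted p = 0.252). With the length and GC correction it was -0.20 (limma, adjusted p = 0.00147).

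The repressors moved apart. AHRR (ENSG00000063438, chr5:321714-438291, plus strand) encodes a receptor-like protein that competes with AHR for ARNT. It had 166, 131 and 131 normalized counts in DMSO and 205, 181 and 238 in BRL-50481. Each treated library was above each control, and BRL-50481 replicate 3 was the highest. AHRR rose by 0.54 ± 0.138 on the log2 scale, or 1.46-fold (limma, adjusted p = 0.00426), from a mean of 143 ± 20.03 to 208 ± 28.7. Its value is uncertain because 58.7% of its exon bases in the GENCODE annotation are shared with the readthrough gene PDCD6-AHRR on the same strand, which had no row among the genes analysed here.

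TIPARP (ENSG00000163659, chr3:156673235-156706770, plus strand) encodes a mono-ADP-ribosyltransferase that modifies AHR and limits its activity. It had 6390, 5823 and 6083 normalized counts in DMSO and 5400, 5125 and 5441 in BRL-50481. All 3 treated libraries were below all controls. TIPARP fell by 0.20 on the log2 scale (SE 0.0509, limma, adjusted p = 0.00491), from 6098 ± 284 to 5322 ± 172, which was 0.873 of the control level. Over the alternatives it lay between -0.28 and -0.15 and passed the test in each.

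CYP1A1, the monooxygenase that oxidises polycyclic aromatic hydrocarbons and is the usual readout of receptor activation, was lower in the treated cells. The gene (ENSG00000140465) is at chr15:74719542-74725536 on the minus strand. It had 236, 252 and 278 normalized counts in DMSO and 149, 185 and 180 in BRL-50481. The highest treated library was below the lowest control. CYP1A1 fell by 0.57 on the log2 scale (SE 0.119, 95% interval -0.83 to -0.32, limma, adjusted p = 0.00104), from 255 ± 21.1 to 172 ± 19.7, or to 0.672 of the control level. Across the alternatives the change lay between -0.66 and -0.48, all of them past the threshold.

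CYP1B1, a related enzyme that also hydroxylates oestradiol, was the most abundant member and did not pass the test. The gene (ENSG00000138061) is at chr2:38066973-38109902 on the minus strand. It had 14954, 12800 and 13905 normalized counts in DMSO and 15373, 14517 and 14631 in BRL-50481. The groups overlapped because DMSO replicate 1 was above 2 of the treated libraries. The log2 difference was 0.10 ± 0.0563 (95% interval -0.02 to 0.22, limma, adjusted p = 0.152), and its sign turned to -0.03 with the length and GC correction (limma, adjusted p = 0.463). It passed at 0.15 without DMSO replicate 1 (limma, adjusted p = 0.000482) and at 0.17 with quantile normalization (limma, adjusted p = 0.0247).

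ALDH1A3 (ENSG00000184254, chr15:100877714-100916626, plus strand) encodes an aldehyde dehydrogenase that makes retinoic acid from retinal. It had 1306, 1174 and 1321 normalized counts in DMSO and 1561, 1518 and 1564 in BRL-50481. The groups were clear of each other, and the treated libraries lay close together. ALDH1A3 rose by 0.29 ± 0.0630 on the log2 scale, or 1.22-fold (limma, adjusted p = 0.00144), from 1267 ± 81.0 to 1548 ± 26.0.

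**Figure D2:**
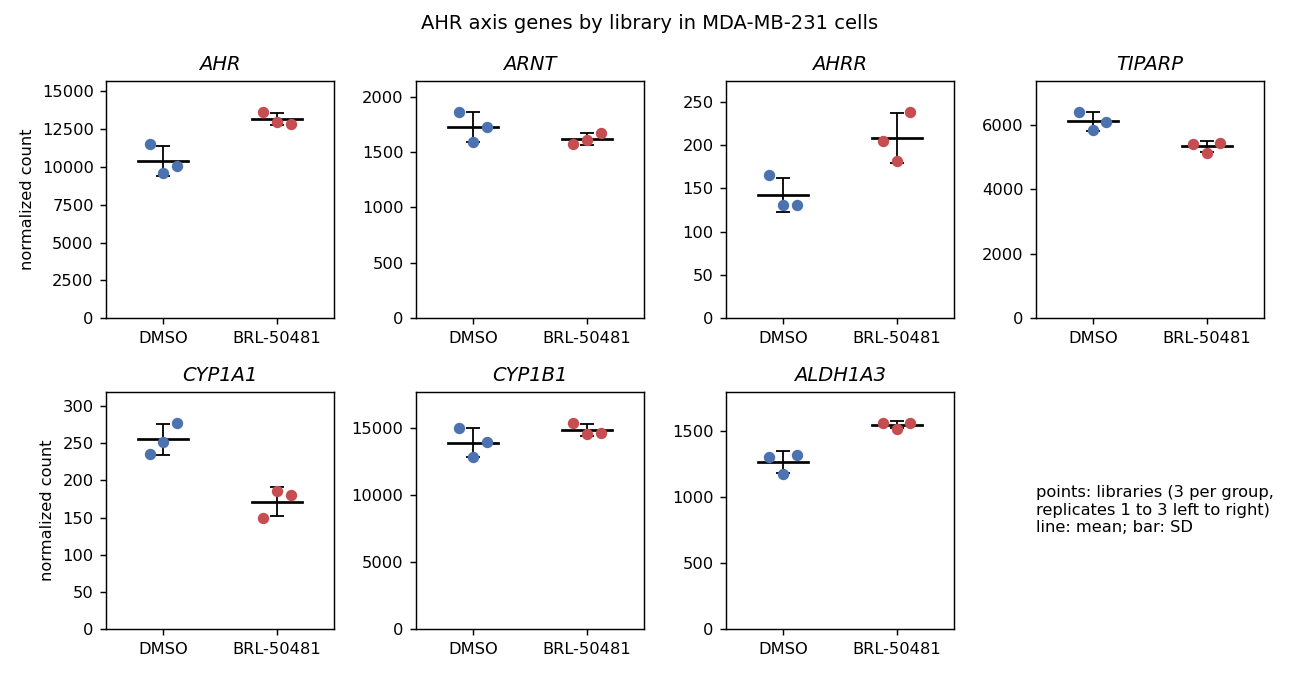
Normalized count (y axis, from 0) of each AHR axis gene in the 3 DMSO and 3 BRL-50481 libraries, with points for libraries, a line for the group mean and a bar for the SD. The groups do not overlap for AHR, AHRR, TIPARP, CYP1A1 and ALDH1A3, and they overlap for ARNT and CYP1B1.

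Of the 7 members, 3 rose (AHR, AHRR and ALDH1A3) and 2 fell (TIPARP and CYP1A1), where 28.9% of all genes tested rose and 29.8% fell. The 5 called members are 71.4% of the axis, and 58.7% of all genes were called, so a call alone set the axis little apart from the transcriptome. The 5 called members were also the 5 whose groups did not overlap, against 64.2% of all genes. For each of them the exact two-sided permutation test gave p = 0.1, the smallest that 3 against 3 allows. The exact test gave p = 0.3 for both ARNT and CYP1B1. The median log2 change was 0.10 over the members and 0.01 over all genes.

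**Figure D3:**
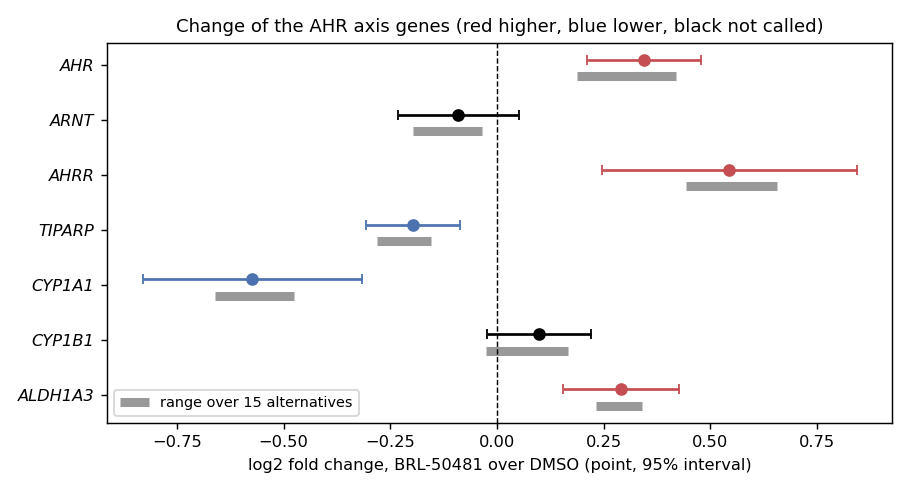
Log2 fold change of each AHR axis gene, BRL-50481 over DMSO, with points and 95% intervals from limma and grey bars for the range over 15 alternative settings. The grey bar of CYP1B1 crosses 0, while those of AHR, AHRR and ALDH1A3 lie above 0 and those of ARNT, TIPARP and CYP1A1 below it.

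Divided by the length of each gene's canonical transcript, the levels ran from CYP1B1, at 2661 ± 206 normalized counts per kilobase in DMSO, through AHR at 1665 ± 159 and TIPARP at 1579 ± 73.5, to ARNT at 366 ± 28.8 and ALDH1A3 at 365 ± 23.4. CYP1A1 stood at 98.1 ± 8.09 and AHRR at 25.2 ± 3.54 per kilobase. In DMSO, AHR and TIPARP differed by less than their spread, and so did ARNT and ALDH1A3. In BRL-50481 the corresponding levels per kilobase were 2109 ± 66.2 for AHR and 1378 ± 44.5 for TIPARP, and 446 ± 7.50 for ALDH1A3 and 343 ± 11.0 for ARNT, and neither pair overlapped. By normalized count, CYP1B1 ranked 325 and AHR 428 of the genes tested, while CYP1A1 ranked 10397 and AHRR 10729.

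**Figure D4:**
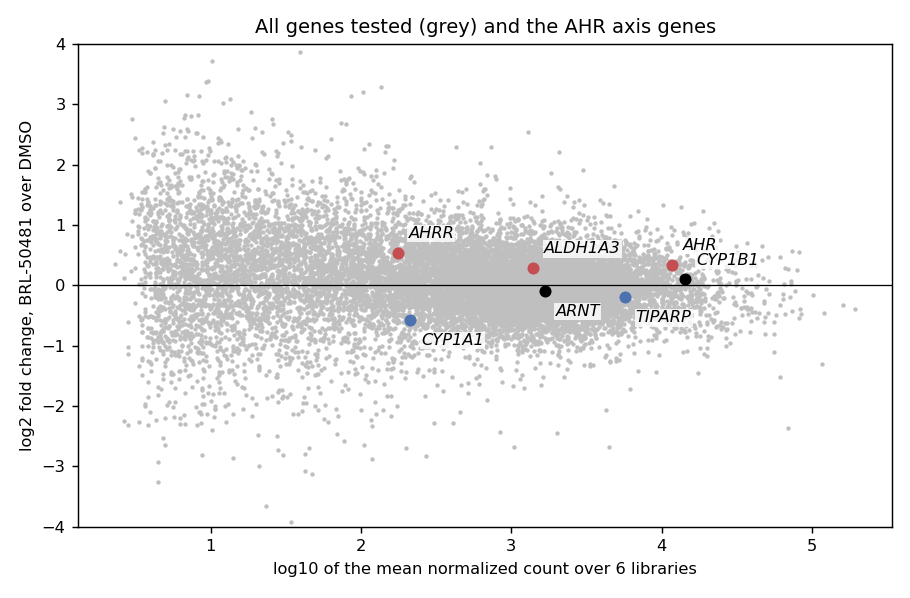
Log2 fold change of all 15246 genes tested, BRL-50481 over DMSO (y axis), against log10 of the mean normalized count over 6 libraries (x axis), with the AHR axis genes in colour (red higher, blue lower, black not called). CYP1B1 and AHR sit at the abundant end, and AHRR and CYP1A1, the 2 least abundant members, show the largest changes of the axis.

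Ratios within a library remove the library's overall scale and compare members directly. The log2 ratio of ARNT to AHR was -2.63, -2.59 and -2.55 in DMSO and -3.12, -3.01 and -2.94 in BRL-50481, so there was less partner mRNA per receptor mRNA in every treated library. The ratio of TIPARP to AHR went from -0.77 to -1.31 in the mean, that of CYP1A1 to AHR from -5.35 to -6.27, and that of CYP1B1 to AHR from 0.42 to 0.17. The ratio of CYP1A1 to CYP1B1 went from -5.77 to -6.44. Of the 6 ratios compared these 5 did not overlap between groups, each with an exact permutation p = 0.1, the smallest possible. All of these but CYP1A1 to CYP1B1 have AHR as the denominator. AHR and CYP1A1 did not overlap on their own, so the ratios partly restate the members' changes and are not separate results. For single genes, 64.2% of all tested did not overlap, and the share over all ratios was not computed. The ratio of AHRR to AHR was -6.19 in DMSO and -5.99 in BRL-50481 and overlapped (exact permutation p = 0.2).

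The chaperone and coactivator genes of the receptor complex went opposite ways. The 3 chaperone genes of the cytosolic complex reported here fell, with a median log2 change of -0.48. HSP90AA1, the inducible HSP90, had 74272, 77359 and 77975 normalized counts in DMSO and 36862, 34901 and 35574 in BRL-50481, a fall to 0.467 of control in libraries that were far apart (log2 change -1.10 ± 0.0440, limma, adjusted p = 1.5e-09). HSP90AB1, the constitutive HSP90, fell by 0.43 and PTGES3, the cochaperone p23, by 0.48 on the log2 scale.

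All 5 coactivator genes rose, with a median log2 change of 0.36. NCOA2 had 470, 247 and 328 normalized counts in DMSO and 623, 655 and 668 in BRL-50481 and rose by 0.94 ± 0.167 (limma, adjusted p = 0.000314). The histone acetyltransferase gene EP300 rose by 0.44 and its relative CREBBP by 0.24, and the steroid receptor coactivators NCOA3 and NCOA1 by 0.36 and 0.18. CUL4B, the scaffold of a ubiquitin ligase that AHR joins, rose by 0.34. In all, 6 of the 9 complex genes reported here rose and 3 fell, where 28.9% of all genes rose and 29.8% fell. The coactivators have long transcripts, with a median of 8430 bases against 2555 for the chaperone group. Across 14737 genes the log2 change had a Spearman rho of 0.175 with transcript length, a value over genes, which are not replicates. Whether length had a part in the opposite directions was not tested. With the length and GC correction, NCOA1 was at 0.01 and CREBBP at 0.09 and neither passed (limma, adjusted p = 0.914 and 0.0915), while NCOA2, NCOA3, EP300 and the 3 chaperone genes still did. NCOA1 also failed without DMSO replicate 2 or 3 or any BRL-50481 replicate, NCOA3 without BRL-50481 replicate 1, and CREBBP without BRL-50481 replicate 3. Without a trend in limma none of these 3 passed (adjusted p = 0.0963, 0.0919 and 0.0666).

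The classical AHR gene battery of detoxifying enzymes showed no common direction. Of its 9 genes, 4 had a row, of which 2 rose, 1 fell and 1 did not pass. The share called was 75%, against 58.7% of all genes. NQO1, a quinone reductase, had 4743, 5234 and 5225 normalized counts in DMSO and 4495, 4262 and 4388 in BRL-50481, lower in every treated library, and fell by 0.21 (limma, adjusted p = 0.0043). ALDH3A1, an aldehyde dehydrogenase, was at 0.992, 3.92 and 5.11 in DMSO and 18.1, 18.1 and 23.3 in BRL-50481, a log2 rise of 2.40 ± 0.487 (limma, adjusted p = 0.000887) between values of a few reads. XDH, xanthine dehydrogenase, was also low and rose by 0.65 (limma, adjusted p = 0.0163), but not past the threshold without BRL-50481 replicate 1 or with quantile normalization (limma, adjusted p = 0.09 and 0.0771). NFE2L2, the regulator of the oxidative stress arm, was at 0.00 ± 0.0449 (limma, adjusted p = 0.954) and changed sign under 4 alternatives.

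Among 11 of 12 further genes known to respond to AHR ligands in some cells, 6 rose and 4 fell, with a median log2 change of 0.19. The share called was 90.9%, against 58.7% of all genes. The inflammatory genes PTGS2, which encodes the prostaglandin synthase COX-2, and IL1B rose. PTGS2 had 1879, 1582 and 1676 normalized counts in DMSO and 3990, 3883 and 3924 in BRL-50481, more than doubled in each treated library (log2 change 1.20, limma, adjusted p = 1.07e-08). SERPINB2, a plasminogen activator inhibitor, went the other way, from 3391, 3408 and 3396 to 692, 603 and 587 (log2 change -2.44, limma, adjusted p = 8.11e-11). SLC7A5, which imports tryptophan, fell by 0.21, and the EGFR ligand gene AREG rose by 0.19 (limma, adjusted p = 0.0156), which failed without BRL-50481 replicate 1 or 3 and without a trend in limma.

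The enzymes that make kynurenine, an AHR ligand, from tryptophan or use it up were listed together with IL4I1, assigned to an indole route. Of 13 genes of this list, 9 had a row and 8 were tested, of which 2 rose, 1 fell and 5 did not pass. The share called was 37.5%, against 58.7% of all genes, and whether the 2 shares differ was not tested. Among the 5 that did not pass, TDO2, IDO1 and IL4I1 had low counts. The standard errors of their log2 changes were 0.58, 0.286 and 0.18, so a missing call says little about them. AFMID, the formamidase that releases kynurenine, had 1152, 1314 and 1212 normalized counts in DMSO and 693, 648 and 726 in BRL-50481, and fell by 0.83 (limma, adjusted p = 7.65e-07). KYNU, which cleaves kynurenine, rose by 0.59 (limma, adjusted p = 1.4e-06). CCBL2, the older symbol of the aminotransferase KYAT3, rose by 0.19 (limma, adjusted p = 0.0175), but not past the threshold without BRL-50481 replicate 1 or without a trend in limma.

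The other proteins of the bHLH-PAS family, several of which pair with ARNT, had a row for 9 of 13 genes, and 4 rose and 2 fell. The share called was 66.7%, against 58.7% of all genes. HIF1A, the oxygen-regulated partner of ARNT, rose by 0.21 and its relative EPAS1 fell by 0.20 on the log2 scale (limma, adjusted p = 0.00486 and 0.00495). NPAS2, a clock protein, had 2298, 2461 and 2339 normalized counts in DMSO and 3544, 3699 and 3592 in BRL-50481 and rose by 0.61 (limma, adjusted p = 5.21e-07). Of the ARNT paralogs, ARNT2, named after its values were seen, had 1134, 969 and 1019 normalized counts in DMSO and 1547, 1593 and 1612 in BRL-50481. Its groups did not overlap, and it rose by 0.61 (limma, adjusted p = 5.92e-06). ARNTL2 rose by 0.27 and ARNTL, also called BMAL1, fell by 0.22 (limma, adjusted p = 0.0048 and 0.0344). Without a trend in limma neither passed (adjusted p = 0.0508 and 0.0511), and ARNTL also failed with median centring and without DMSO replicate 1 or BRL-50481 replicate 2 or 3.

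Of 12 targets of the hypoxia-inducible factors, which use the same partner, 6 rose and 1 fell, with a median log2 change of 0.20. The share called, 58.3%, was at the 58.7% of all genes. CA9, a carbonic anhydrase, rose from 17.9, 22.5 and 17.4 to 127, 129 and 129 normalized counts, or by 2.68 (limma, adjusted p = 1.06e-07). NDRG1, a stress-response gene, rose by 0.61 and the glucose transporter gene SLC2A1 by 0.26, while ADM, the adrenomedullin gene, fell by 0.81. VEGFA, an angiogenic factor, was at 0.01 ± 0.0408 (limma, adjusted p = 0.884), and its sign turned under 2 alternatives.

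The retinoid genes around ALDH1A3 had a row for 17 of 23, and of the 16 tested 4 rose and 5 fell. The share called was 56.2%, against 58.7% of all genes. CRABP2, which carries retinoic acid to its receptors, had 1336, 1513 and 1422 normalized counts in DMSO and 244, 279 and 270 in BRL-50481, with every treated library far below every control (log2 change -2.43, limma, adjusted p = 4.4e-10). RARRES3 and TGM2, both known as retinoic acid targets, rose by 1.62 and 0.82. RDH11 at -0.08 and RXRB at 0.09 did not pass the test (limma, adjusted p = 0.177 and 0.199). With the length and GC correction both passed (limma, adjusted p = 0.0169 and 0.0366), and RXRB also with quantile normalization (limma, adjusted p = 0.0428).

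Of 11 mono-ADP-ribosyltransferase relatives of TIPARP, 5 rose and 2 fell, with a median log2 change of 0.55. The share called was 63.6%, against 58.7% of all genes. PARP3 had 347, 414 and 354 normalized counts in DMSO and 679, 779 and 705 in BRL-50481 and rose by 0.95 (limma, adjusted p = 1.51e-06). PARP4 rose by 0.61, PARP12 fell by 0.60, and PARP14 at 0.19 did not pass (limma, adjusted p = 0.0626) though it did without DMSO replicate 1, with quantile normalization and with median centring (limma, adjusted p = 4.68e-07, 0.0156 and 0.0334). The list of the other drug-sensing receptors PXR and CAR and their targets had a row for 3 of 13 genes. The share called was 100%, against 58.7% of all genes. The transporter gene ABCC3 rose by 0.36, CYP3A5 rose by 1.43 between values under 26 normalized counts, and ABCC2 fell by 0.50 (limma, adjusted p = 0.0427) with groups that overlapped. CYP3A5 failed without BRL-50481 replicate 3, and ABCC2 without DMSO replicate 1 or 3 or BRL-50481 replicate 1 or 2, with median centring and without a trend in limma.

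**Figure D5:**
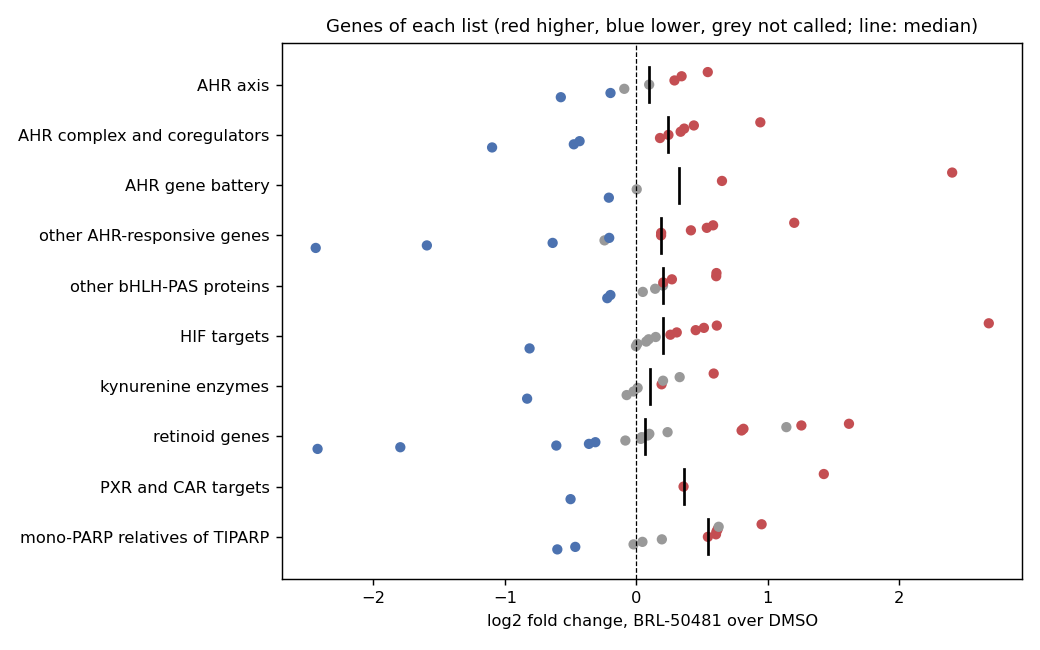
Log2 fold change of every tested gene in the AHR axis and in 9 related gene lists (x axis, BRL-50481 over DMSO), with red for higher, blue for lower, grey for not called, and a line at the list median. Every list holds genes on both sides of 0, and the medians run from 0.06 for the retinoid genes to 0.55 for the relatives of TIPARP.

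Genes whose levels followed a member most closely over the 6 libraries, among 12250 compared, are a description without a test, since all points share the same libraries and treatment. Closest to AHR were SAMD4A, ERBB2IP and ATP2B1, with Pearson r of 0.9993, 0.9991 and 0.9991. Closest to TIPARP were PGM3, THRAP3 and ZNF607 at 0.9993, 0.9928 and 0.9927, and closest to CYP1B1 were ZBTB41, KCNMB3 and CHIC1 at 0.994, 0.9928 and 0.9915.

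The libraries carried the markers chosen for the line and had similar depth. The smallest value of each library divided 100% of its values to whole numbers within 0.001, and the sums in those units were 30750573 to 33446984. The 4 markers chosen for the line (VIM, CD44, KRT18 and EGFR) summed to 109216 to 114828 normalized counts in DMSO and 153220 to 156266 in BRL-50481. Among them VIM, CD44 and EGFR rose by 0.58, 0.47 and 0.73 on the log2 scale, and KRT18 fell by 0.31 (limma, adjusted p = 2.91e-07, 6.54e-07, 1.35e-05 and 0.000504). The luminal markers, of which 3 of 4 had a row, summed to 207 to 262 and 272 to 323, the leukocyte markers (CD68 alone of 3) to 3344 to 3795 and 4881 to 5132, the endothelial pair to 326 to 396 and 465 to 552, and 2 of 3 fibroblast markers to 312 to 370 and 318 to 366. Of the luminal markers GATA3 rose by 0.57 and FOXA1 fell by 1.02 (limma, adjusted p = 0.00234 and 0.00867). ESR1, PTPRC, CD3E and DCN had no row among the genes analysed here, and CDH5 and PGR were at 0 in 1 DMSO library each. The names of these marker lists do not mean that such cells were present, as both groups were 1 cultured line. The part of these markers in the members' changes was not tested, and in bulk RNA fewer cells of a type and less RNA per cell cannot be told apart. DMSO replicate 1 deviated most from its group (residual SD 0.141 log2 units, against 0.0791 to 0.119 in the other libraries), and without it the members called were the same 5 plus CYP1B1.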

How the data were processed

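RNA sequencing of 6 MDA-MB-231 libraries, 3 DMSO and 3 BRL-50481, grouped by sample title, was analysed from 1 table. The sources differ on whether RNA was selected with oligo-dT or depleted of ribosomal RNA. Per the study's methods, single-end reads (76 bases) were mapped by the authors to hg38 using STAR 2.7.1a, counted them per UCSC gene with HTSeq in reverse-strand mode, so antisense genes were kept apart, and normalized with DESeq2 1.28. The deposited signal is the normalized count per gene and library. The table also held the authors' p-value, fold change and log2 columns, which were not used.

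Here limma 3.58.1 in R 4.3.3 (lmFit, eBayes with trend) was run on log2(normalized count + 1) over the genes with a value of at least 4 in at least 3 libraries. Fold changes are on that scale, which understates low genes, and standard errors are limma's. A gene was called when its p, adjusted by Benjamini-Hochberg over all genes tested, was under 0.05. Depth limits low genes, since the smallest step between values was 0.969 to 1.02 normalized counts. Count-based tests were planned for reads recovered from the normalized values. In every library all values were whole multiples of 1 step, but the recovery did not pass the check set for it in 3 of the 6 libraries, and these tests were not run. The study describes the replicates as biological. The sources used here do not say how cultures were separated, and p-values measure the spread between these libraries.

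Transcript lengths came from GENCODE v44 for 96.5% of genes, matched by current or older symbol. The members and gene lists were chosen with earlier results of these data known. The AHR complex list held 2 further genes that are not reported here, and its counts cover the genes that are. Named were all members, the tested genes of the AHR battery and of the complex as reported, and in each other list the 3 most abundant genes and the called gene with the largest change in each direction. Genes most like AHR, CYP1B1 and TIPARP were ranked by Pearson r among genes with a mean of at least 50. The fit was tested on simulated data. The alternatives changed the pseudocount (0.5 or 4), the filter (none, or a mean of at least 20), and otherwise used quantile normalization, median centring, no trend, a replicate block, each library left out in turn and, added after the data were seen, a length and GC correction by loess and the wider motif window.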

Additional observations from a re-analysis of the deposited data

How the results depend on the processing

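The genes called higher numbered 3751 to 4876 and lower 4027 to 5547 over the 15 alternatives, and the members called higher 3 to 4 and lower 2 to 3. AHR, AHRR, TIPARP, CYP1A1 and ALDH1A3 kept direction and call under all 15. The length and GC correction, added after the data were seen, put ARNT past the threshold at -0.20 and turned CYP1B1 to -0.026, NFE2L2 to -0.023 and VEGFA to -0.045. Quantile normalization put CYP1B1 past it at 0.17. limma without a trend called 6 of the 9 complex genes in place of 9. With 1 library left out, CYP1B1 ranged from 0.041 to 0.15, the highest without DMSO replicate 1. NFE2L2 ranged from -0.0073 to 0.021, below 0 without DMSO replicate 1, DMSO replicate 3 or BRL-50481 replicate 1 (-0.0026, -0.0073 and -0.0045), and VEGFA from -0.0028, without BRL-50481 replicate 1, to 0.017. Causes other than the fewer libraries were not tested. Of 748 pairs of a named list or marker gene and an alternative, 704 kept direction and side of the threshold, 38 crossed the threshold and 6 changed sign, none of the 6 among called genes.

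Replicates of the same number correlated in their deviations at 0.121, 0.104 and 0.0514 over 12251 genes. BRL-50481 replicate 3 correlated more closely, at 0.0607, with a DMSO library of another number. Every other library correlated most closely with the library of its own number in the other group. Whether libraries of the same number were paired was not tested. With a replicate block 4440 genes were higher and 4589 lower. The edgeR and DESeq2 alternatives were not run, because the recovery of whole reads did not pass its check in 3 of the 6 libraries. Depth limits AHRR, CYP1A1, ALDH3A1, XDH and CYP3A5 most.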
